A study of Mus musculus with 10 samples.

Results

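10 genes known from ciliated and secretory cells that line the brain ventricles were examined in mouse midbrain taken at embryonic day 14.5. They were listed by name, with earlier results of these data known, and all 10 were found among the 30935 gene IDs of the table. 4 belong to motile cilia (Foxj1, Ccdc153, Rsph1 and Tmem212), 5 to the choroid plexus (Ttr, Kl, Folr1, Clic6 and Enpp2), and 1, Sspo, to the subcommissural organ. RNA-seq counts were available for 5 wild-type samples, Rbfox1 +/+, and 5 samples homozygous for the HAR.321 deletion, Rbfox1 ΔHAR.321/ΔHAR.321. HAR.321 is named as a human accelerated region, a stretch conserved in other vertebrates that changed fast in the human lineage, and lies in the locus of Rbfox1, which encodes a neuronal splicing factor. The wild-type libraries carry the numbers 1, 2, 4, 5 and 6 and the deletion libraries 2, 3, 4, 5 and 6. The sources used here do not give strain, sex, litter or the number of founder lines.

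Motile cilia beat by means of dynein arms, radial spokes and a central pair of microtubules built on the axoneme, and Foxj1 is the forkhead transcription factor that switches on many of their genes, together with factors of the RFX family. In the brain, motile cilia are best known from the ependyma, whose cells arise from radial glia and mature around and after birth, while the floor plate expresses Foxj1 earlier. The choroid plexus is a secretory epithelium that grows into the ventricles of the forebrain and hindbrain, not into that of the midbrain, and makes cerebrospinal fluid. Transthyretin, the product of Ttr, is its most characteristic secreted protein. The subcommissural organ lies at the border of the diencephalon and the midbrain and secretes SCO-spondin, the product of Sspo, which forms the Reissner fibre.

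The 10 genes divided into those with a measurable level and those near 0. The wild-type levels per kb of transcript, from CPM (counts scaled to a common library size) and the longest annotated transcript, were 16.0 ± 2.45 CPM per kb for Enpp2, 6.09 ± 0.80 for Foxj1 and 1.86 ± 0.43 for Folr1 (SD, n = 5). Rsph1 followed with 0.70 ± 0.59 CPM per kb, Kl with 0.30 ± 0.07, Sspo with 0.16 ± 0.07 and Clic6 with 0.098 ± 0.059. The ranges of Enpp2, Foxj1 and Folr1 did not overlap each other, while each gene from Folr1 downward overlapped the next one. Ccdc153, Tmem212 and Ttr had no count in 4 of 5 wild-type libraries each, and their order among themselves has no meaning at this depth. In the deletion group the first 7 places were held by the same genes in the same order.

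**Figure D1:**
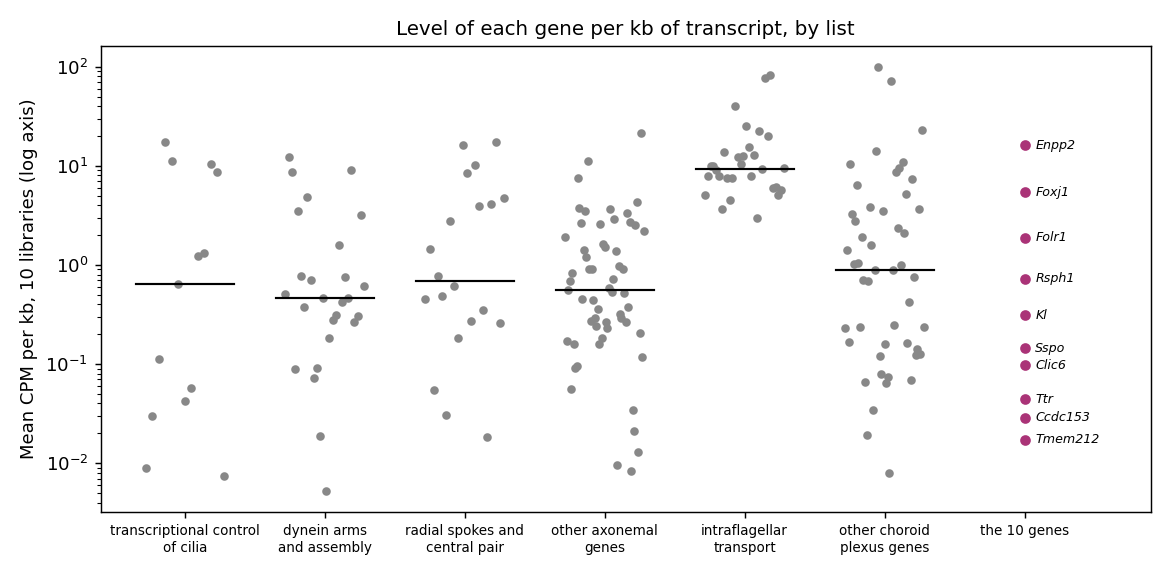
Mean CPM per kb of transcript over the 10 libraries on a log axis, for 5 lists of cilia genes, 1 list of other choroid plexus genes and the 10 genes described here; each point is 1 gene, lines are medians, and the 2 genes at 0 in all libraries are not drawn. The 10 genes run from Enpp2 at the top to Tmem212 at the bottom, and the intraflagellar transport genes sit above the medians of all other lists.

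Foxj1 (Entrez gene 15223) had 253 to 335 counts in each wild-type library and 209 to 240 in each deletion library. In CPM, it stood at 13.2, 18.6, 15.5, 17.5 and 15.2 in wild-type 1, 2, 4, 5 and 6. It stood at 13.9, 13.4, 11.6, 11.1 and 11.6 CPM in deletion 2, 3, 4, 5 and 6. Each of the 5 deletion libraries had less than the wild-type mean, but the groups overlapped, because wild-type 1 was lower than deletion 2 and deletion 3. The means were 16.0 ± 2.11 CPM in wild-type samples and 12.3 ± 1.23 CPM with the deletion (SD, n = 5), which is a log2 ratio (deletion over wild-type) of -0.38 (SE 0.12, 95% interval -0.62 to -0.13). Over all genes it missed the threshold of edgeR's quasi-likelihood test (unadjusted p = 0.00456, Benjamini-Hochberg adjusted p = 0.207). It ranked 337 by p among the 15288 genes tested. Its log2 ratio was between -0.48 and -0.32 in all 20 alternative settings, with adjusted p from 0.131 to 0.653 in the 19 that gave one (DESeq2 gave none, at an unadjusted p of 0.00234). The slope of log2 CPM on transcript length was -0.061 to -0.0098 per doubling in the wild-type libraries, 0.034 to 0.104 in deletion 2, 3, 5 and 6 and -0.055 in deletion 4. With the length trend of each library removed, the log2 ratio of Foxj1 was -0.34 (SE 0.12, edgeR adjusted p = 0.513). In tissue measured as a whole, fewer cells of a type and less RNA per cell cannot be told apart.

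**Figure D2:**
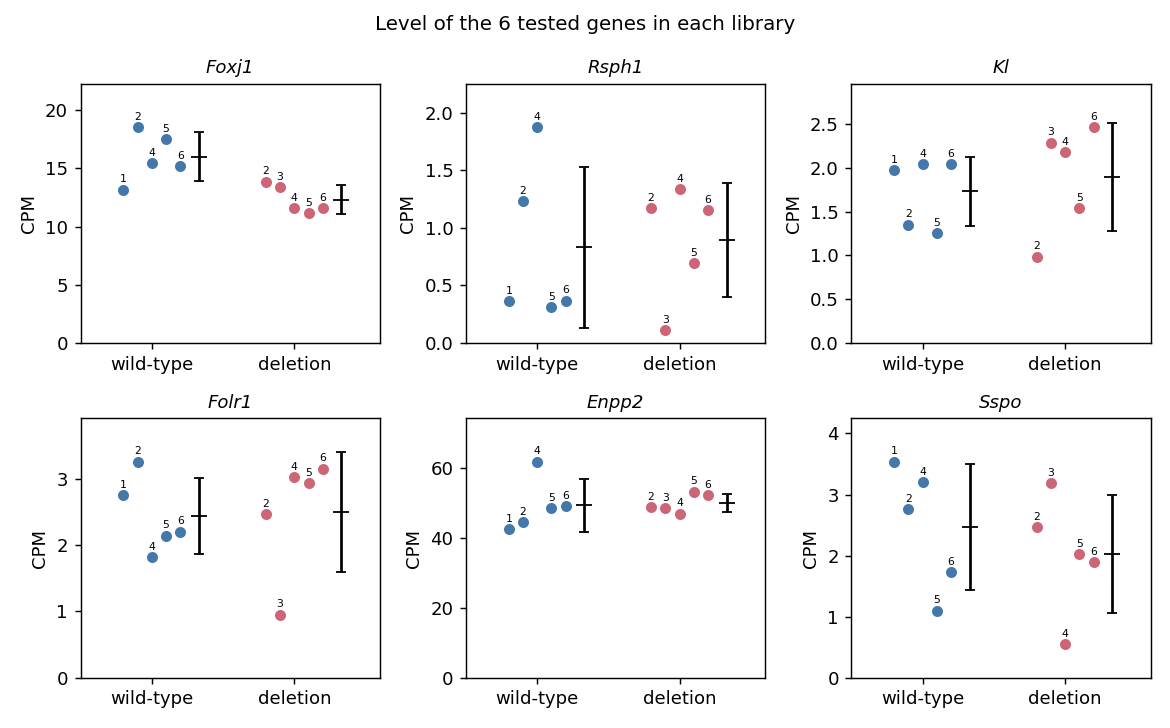
CPM of the 6 tested genes in each library, with library numbers beside the points; bars are the group mean and SD (n = 5). Foxj1 is below the wild-type mean of 16.0 CPM in all 5 deletion libraries, and for all 6 genes the groups overlap.

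Marker lists of cells that can express Foxj1 are given beside it. Of 10 neural progenitor markers, 8 were lower, with a median log2 ratio of -0.08 and a summed level of 1237 to 1587 CPM in wild-type samples and 1157 to 1632 CPM with the deletion. Of 19 tested genes of the roof plate and subcommissural organ, 12 were lower, with a median of -0.19 and sums of 339 to 404 CPM against 322 to 376 CPM. Zic4 and Zic1, transcription factors of the dorsal midline, had log2 ratios of -0.27 (SE 0.11) and -0.19 (SE 0.08), and neither passed (edgeR adjusted p = 0.380 and 0.407). Pax7, a dorsal midbrain factor and the other of the 3 highest per kb, had 0.03 (SE 0.12), and of the 7 higher genes Lmx1b had the largest value, 0.28 (SE 0.27). The 11 floor plate genes had a median of 0.00, and their sum ranged from 394 to 685 CPM in wild-type samples and from 465 to 683 CPM with the deletion. Over all genes tested the median was -0.00 and 50.7% were lower. The part of these cells in the Foxj1 value was not tested.

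The transcription factors around Foxj1 divided by level. Rfx3, a partner of Foxj1 in cilia genes, had 98.2 ± 7.36 CPM in wild-type samples and 94.5 ± 9.42 CPM with the deletion (log2 ratio -0.06, SE 0.07). E2f4 and E2f5, cell cycle factors that also serve centriole amplification, had log2 ratios of 0.16 (SE 0.11) and -0.14 (SE 0.11). Other regulators of multiciliated cells lay on both sides, and they are named here after their values were seen. Myb had 58 to 108 counts per library (log2 ratio 0.18, SE 0.20) and Rfx2, another RFX factor, 66 to 140 (0.23, SE 0.18). Gmnc, the geminin relative that starts the multiciliated fate, had 0 to 13 counts per library and Mcidas, which acts with it, 0 to 14. Ccno, a cyclin-like protein of centriole production, had 0 to 2 counts, Deup1, of the deuterosome, 0 to 12, and Cdc20b, of the same structure, 0 to 4. Foxn4, a forkhead factor, had 2.51 ± 0.78 CPM in wild-type samples and 1.39 ± 0.49 CPM with the deletion (log2 ratio -0.84, SE 0.30, edgeR adjusted p = 0.280). It was below the wild-type mean in all 5 deletion libraries.

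Rsph1 (Entrez gene 22092), of the radial spoke head, had counts of 7, 20, 34, 6 and 7 in wild-type 1, 2, 4, 5 and 6. The deletion libraries 2, 3, 4, 5 and 6 had 19, 2, 27, 13 and 22. High and low libraries occurred in both groups, and the variance within groups was 7.94 times that of counting error. The means were 0.83 ± 0.70 CPM and 0.89 ± 0.50 CPM (SD, n = 5), with a log2 ratio of 0.13 whose 95% interval ran from -1.02 to 1.27 (edgeR adjusted p = 0.969). At this depth and spread a difference of 2-fold in either direction lay within the interval. Leaving out wild-type 4, the highest library, moved the log2 ratio to 0.68.

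Ccdc153 (Entrez gene 270150), a part of the dynein regulatory complex of the axoneme, had 5 counts in wild-type 1, 1 count in deletion 5 and 0 in the other 8 libraries. Tmem212 (Entrez gene 208613), a membrane protein used as an ependymal marker, had 2 counts in wild-type 2 and 0 in the other 9. For a library at 0, the limit that 3 counts set was 0.148 to 0.185 CPM, for counting error only. Neither gene passed the filter on low counts, so neither was tested. Both are expressed in mature ciliated cells, and their near absence stood beside 209 or more counts of Foxj1 in each library. Their promoters are printed because these are the motile cilia members near 0 while Foxj1 and Rfx3 were measured. Windows from a RefSeq table of promoters were searched for 4 of the 10 genes (Ccdc153, Tmem212, Kl and Sspo), each from 250 bases before to 50 bases after the start. No window was searched for the other members, Ttr among them. The coordinates below are in GRCm38.p6, not in mm39, the build of the counts. Capitals mark a match to GTTGCC, the half-site of RFX factors, on either strand:
Ccdc153 promoter, chr9:44240427-44240726, plus strand: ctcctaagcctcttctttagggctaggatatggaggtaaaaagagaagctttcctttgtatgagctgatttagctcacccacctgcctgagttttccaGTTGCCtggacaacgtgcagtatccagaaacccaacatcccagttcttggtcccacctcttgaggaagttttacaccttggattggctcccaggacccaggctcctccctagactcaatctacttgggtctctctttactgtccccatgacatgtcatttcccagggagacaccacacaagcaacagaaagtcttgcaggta
Tmem212 promoter, chr3:27896319-27896618, minus strand: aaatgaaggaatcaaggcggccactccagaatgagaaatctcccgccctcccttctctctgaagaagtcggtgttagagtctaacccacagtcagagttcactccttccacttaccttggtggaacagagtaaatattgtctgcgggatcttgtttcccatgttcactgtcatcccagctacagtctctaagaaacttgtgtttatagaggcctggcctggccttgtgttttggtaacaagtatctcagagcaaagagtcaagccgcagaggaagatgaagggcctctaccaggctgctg
The Ccdc153 window held 1 such match, 152 bases before the start, and the Tmem212, Kl and Sspo windows held 0. Of 32851 promoter windows of this length, 12.5% held at least 1 match. A forkhead site, GTAAACA on either strand, was in none of the 4 windows and in 3.65% of all. Only these exact strings were searched, so other forms of either site were not counted. These matches describe the letters of the windows only.

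**Figure D3:**
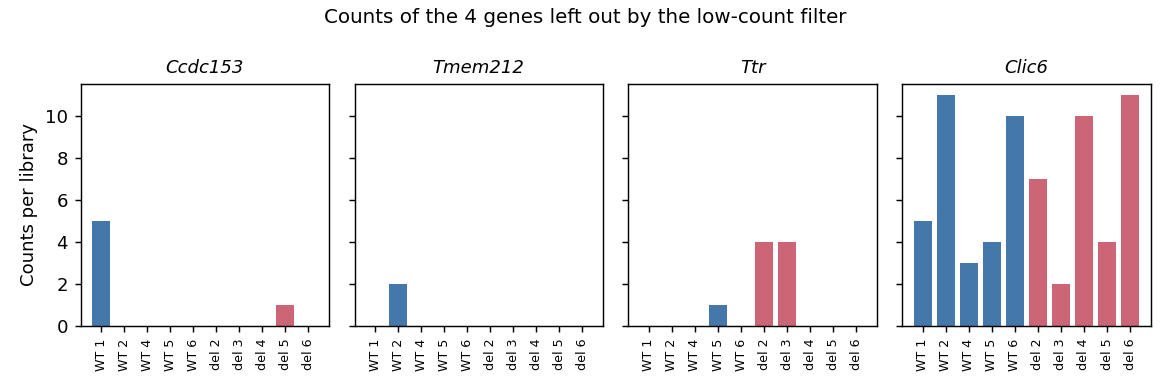
Counts per library of the 4 genes left out by the low-count filter, in the 5 wild-type (blue, WT) and 5 deletion (red, del) libraries. Ccdc153, Tmem212 and Ttr are at 0 in most libraries, and Clic6 has 2 to 11 counts in every one.

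The control and structural genes of motile cilia were described from 4 lists that together named 123 genes, of which 118 were in the table and 83 were tested. Of those 83, 44 were higher and 39 lower with the deletion (median log2 ratio 0.02), and 0 passed edgeR's test after adjustment. An unadjusted p under 0.05 was found for 4 of the 83, a smaller share than the 10.5% of all genes tested, and all 4 were lower: Foxn4, Cfap300, Tekt1 and Lrrc23. Cfap300, an assembly factor of dynein arms, had 15.2 ± 1.70 CPM in wild-type samples and 12.3 ± 1.34 CPM with the deletion (log2 ratio -0.31, SE 0.12, adjusted p = 0.311). Lrrc23, of the radial spokes, had 1.94 ± 0.79 and 0.95 ± 0.17 CPM (-1.01, SE 0.34, adjusted p = 0.238). Tekt1, a tektin inside the microtubule doublets, had 4.21 ± 0.85 and 3.09 ± 0.85 CPM (-0.45, SE 0.22, adjusted p = 0.474). Of the 5 deletion libraries, 5 were under the mean of the wild-type for Cfap300 and for Lrrc23, and 4 for Tekt1. These 3 have transcripts of 1592, 1470 and 1447 bases, and levels differed by length between the groups as given for Foxj1, whose part here was not tested. Of the 118 genes, 48 had a mean under 1 CPM, and Sntn, of the ciliary tip, and Dnaaf6, a dynein assembly factor, had no count in any library.

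Each list was also read by its highest genes per kb. Tppp3, a tubulin-polymerizing protein, led the axonemal list (30.6 ± 3.54 CPM in wild-type samples and 29.2 ± 6.94 with the deletion), followed by Cfap20 (log2 ratio -0.01, SE 0.08) and Ccdc39 (-0.01, SE 0.11). Spef1, of the central pair, had a log2 ratio of 0.03 (SE 0.08), and the radial spoke gene Rsph9 one of -0.18 (SE 0.12). Rsph3a, also of the spokes, had -0.07 (SE 0.08) and Rsph3b 0.27 (SE 0.18), but these are near-identical copies whose counts can be split. Hydin, of the central pair and a known hydrocephalus gene, had 0 to 19 counts and a log2 ratio of 1.29 (SE 0.72, edgeR adjusted p = 0.568). Cfap298 and Dnal1, of dynein arms and their assembly, had -0.04 (SE 0.11) and 0.09 (SE 0.08), and Dnaaf5 had 0.17 (SE 0.13). The 30 genes of intraflagellar transport, which primary cilia need as well, had a median level of 9.39 CPM per kb, against 0.46 to 0.69 for the 4 motile cilia lists. Of these 30, 13 were higher and 17 lower, with a median log2 ratio of -0.01, and 0 had an unadjusted p under 0.05. Its highest members per kb, the kinesin genes Kifap3 and Kif3a and the transport gene Ift20, had log2 ratios of 0.06 (SE 0.07), 0.01 (SE 0.07) and -0.07 (SE 0.07). Traf3ip1 (0.17, SE 0.10) and Bbs2 (0.15, SE 0.09) had the smallest p of that list.

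Ttr (Entrez gene 22139) was at 0 in wild-type 1, 2, 4 and 6 and in deletion 4, 5 and 6. It had 1 count in wild-type 5, and 4 counts each in deletion 2 and deletion 3. Summed over a group, that is 1 count of 91693876 (95% exact Poisson interval 0.0253 to 5.57 counts) and 8 of 92361441 (3.45 to 15.8), intervals that cover counting error only. The gene that defines choroid plexus epithelium was thus not detected in 7 of 10 libraries at this depth. The source of the reads of the other members was not tested, and they are named only as known from that epithelium. Among 49 further genes known from that epithelium, 36 had a count in every library, and 16 had a mean under 1 CPM. The list includes genes also known from other cells, such as Otx2 of the midbrain itself. The share of all genes with a count in every library was not taken. Examples named after their values were seen lay on both sides. Htr2c, a serotonin receptor, had 52 to 102 counts per library, Cldn1, of tight junctions, 37 to 66, Tmem72 30 to 82 and Prlr, the prolactin receptor, 21 to 67. Kcne2, a potassium channel subunit, had 0 to 19 counts (19 in wild-type 1), Kcnj13, another potassium channel, 0 to 7, the coagulation factor gene F5 0 to 10 and the water channel gene Aqp1 5 to 15.

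Enpp2 (Entrez gene 18606), the secreted enzyme autotaxin that makes lysophosphatidic acid, had the highest level of the 10. It stood at 42.5, 44.5, 62.0, 48.7 and 49.2 CPM in wild-type 1, 2, 4, 5 and 6. It stood at 49.0, 48.7, 47.1, 53.3 and 52.5 CPM in deletion 2, 3, 4, 5 and 6. The deletion libraries lay inside the wild-type range, which wild-type 4 extended upward. The means were 49.4 ± 7.57 and 50.1 ± 2.66 CPM (SD, n = 5), and the log2 ratio was 0.02 (SE 0.09, 95% interval -0.17 to 0.21, edgeR adjusted p = 0.968). The interval thus allows at most a 1.16-fold higher or a 0.892-fold level in the deletion group. In the annotation, 5.97% of the exonic bases of Enpp2 are shared with Gm26684 on the opposite strand, whose reads cannot be told apart without strand. No exon of the other 9 genes was shared with another gene.

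Folr1 (Entrez gene 14275), the folate receptor alpha, had 2.76, 3.26, 1.82, 2.14 and 2.20 CPM in wild-type 1, 2, 4, 5 and 6. In deletion 2, 3, 4, 5 and 6 it had 2.46, 0.95, 3.03, 2.93 and 3.15 CPM. Deletion 3 was the lowest of all 10 libraries, and the other deletion libraries lay within the wild-type range. The log2 ratio was 0.05 (SE 0.29, 95% interval -0.55 to 0.64, edgeR adjusted p = 0.977), and 0.25 without deletion 3. Kl (Entrez gene 16591), the co-receptor klotho of FGF23, had 1.98, 1.35, 2.05, 1.254 and 2.04 CPM in the wild-type and 0.99, 2.29, 2.18, 1.55 and 2.47 CPM in the deletion libraries, in the same orders. Its log2 ratio was 0.13 (SE 0.30, 95% interval -0.49 to 0.75, edgeR adjusted p = 0.929), so the difference was smaller than the spread among libraries of a group. Clic6 (Entrez gene 209195), an intracellular chloride channel protein, had 3 to 11 counts in wild-type samples and 2 to 11 with the deletion, 33 and 34 in sum. It did not pass the filter on low counts.

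Of 50 further genes known from choroid plexus, 49 were in the table and 35 were tested. Of these, 17 were higher and 18 lower, with a median log2 ratio of -0.06, and 0 passed edgeR's test, while 3 of the 35 had an unadjusted p under 0.05, all higher, against 10.5% of all genes. Atp11a, a phospholipid flippase, had 73.5 ± 1.69 CPM in wild-type samples and 85.7 ± 3.50 with the deletion (log2 ratio 0.22, SE 0.06, adjusted p = 0.138), and its groups did not overlap, as for 2.49% of all genes. Ace, the angiotensin-converting enzyme, had a log2 ratio of 0.37 (SE 0.15, adjusted p = 0.376). The other was the calcium pump gene Atp2b3 (0.41), named after its value was seen. These 3 have long transcripts, of 7549, 4906 and 4637 bases, and the part of length was not tested for them. The highest of the list per kb were Igfbp2, which binds insulin-like growth factors, at 99.1 CPM per kb, Otx2, a transcription factor of the midbrain itself, at 71.9, and Vat1l at 23.2. Their log2 ratios were -0.10 (SE 0.09), -0.15 (SE 0.12) and 0.10 (SE 0.08). The summed level of the list was 884 to 941 CPM in wild-type samples and 859 to 941 CPM with the deletion.

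Sspo (Entrez gene 243369) had 3.54, 2.77, 3.21, 1.10 and 1.73 CPM in wild-type 1, 2, 4, 5 and 6. It had 2.46, 3.19, 0.55, 2.03 and 1.89 CPM in deletion 2, 3, 4, 5 and 6. Both groups held high and low libraries, from 11 counts in deletion 4 to 68 in wild-type 1, and the variance within groups was 8.67 times that of counting error. The means were 2.47 ± 1.03 and 2.02 ± 0.97 CPM (SD, n = 5), a log2 ratio of -0.29 (SE 0.37, 95% interval -1.07 to 0.48), with an adjusted p of 0.848 by edgeR's test. Spdef, another transcript known from the subcommissural organ and named after its values were seen, had 62, 30, 58, 9 and 8 counts in wild-type 1, 2, 4, 5 and 6 and 43, 11, 17, 16 and 36 in deletion 2, 3, 4, 5 and 6. The summed level of 14 genes of the forebrain, which borders this region, was 961, 837, 861, 585 and 636 CPM in wild-type samples and 869, 598, 814, 841 and 881 CPM with the deletion. In the wild-type group the 3 libraries highest in Sspo were also the 3 highest in those sums, while deletion 3 was the highest of its group in Sspo and the lowest in those sums. The part of tissue borders in the Sspo values was not tested.

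**Figure D4:**
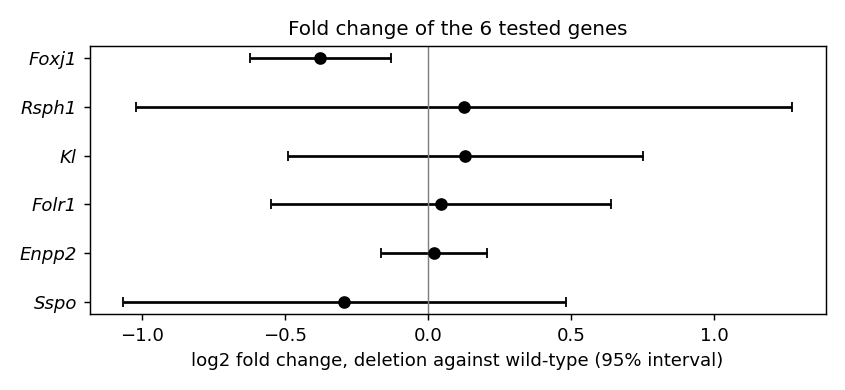
Log2 fold change (log2 ratio, deletion against wild-type) of the 6 tested genes with 95% intervals from edgeR. The interval of Foxj1 lies below 0, from -0.62 to -0.13, though its adjusted p was 0.207; the other 5 intervals include 0, and that of Rsph1 is the widest.

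Of the 10 genes, 6 passed the filter on low counts and 0 of these 6 passed edgeR's test after adjustment, where 9 of all 15288 tested genes did (0.0589%). With so small a share over all genes, 0 of 6 says little about these genes. At an unadjusted p under 0.05, 1 of the 6 was called, Foxj1, against 10.5% of all genes tested. Of the 6, 0 had groups that did not overlap, against 2.49% of all genes. The test of limma-voom called 0 of the 6, and DESeq2 gave an adjusted p for Enpp2 alone (0.959), so the other 5 could not be called by it.

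The genes whose levels varied most like a member over the 10 libraries were found by Pearson's r of log2 CPM after the group means were removed, among 13218 genes with a mean of at least 1 CPM (13219 for Ttr). This is a description, since the points share their libraries and the highest of so many values over 10 libraries are large in any case. For Foxj1 they included Nwd1 (r = 0.951), Emc9 (0.911), Cyp2d22 (0.902) and Nefm (0.884). For Enpp2 they were Emc3 (0.957), Rgs2 (0.948), Cox16 (0.933), Asnsd1 (0.929) and Ppp2ca (0.925), and without wild-type 4 these values were 0.726 to 0.834. For Sspo they were Spdya (0.946), Zfp300 (0.942), Lurap1l (0.931), Fam120aos (0.929) and Fbxl21 (0.928). For Ttr, Rsu1, Cd109, Lhfp, Prdm8 and Ccm2l had r from 0.922 to 0.947, but these rest on the 3 libraries in which Ttr had a count. These names depended on the setting. Without the library highest in the member, 1 of 5 remained among the 5 most alike for Foxj1, 0 for Enpp2, 0 for Sspo and 2 for Ttr, and without removing the group means 1, 1, 3 and 0 did. Among the 6 tested genes themselves, r ran from -0.57 for Foxj1 and Kl to 0.61 for Rsph1 and Folr1, and Foxj1 and Rsph1 had an r near 0.

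The libraries held 16246892 to 20255728 counts. Rbfox1 itself had 140.4 to 166.3 CPM in wild-type and 146.7 to 181.3 CPM in deletion libraries (log2 ratio 0.11, SE 0.07, edgeR adjusted p = 0.606). The labels do not place HAR.321 within the gene, so this value does not check the genotypes. Marker lists of other tissues are given for what else the samples may contain. The 8 neuron markers summed to 8893 to 9334 CPM in wild-type samples and 8296 to 9630 CPM with the deletion, and the 12 endothelial markers to 254 to 297 and 254 to 289 CPM. Of 14 liver and yolk sac genes, which include other sources of Ttr, 5 were at 0 in every library (Alb, Apoa2, Apoc3, Fgb and Ahsg). Another 5 had a count in every library: Trf (150 to 261), Cubn (47 to 75), Amn (43 to 74), Rbp4 (9 to 38) and Apoa1 (1 to 25). The list summed to 15.5 to 22.6 CPM in wild-type samples and 17.3 to 21.5 CPM with the deletion. Of 12 hindbrain genes, Hoxb2, Hoxb1, Hoxa3 and Hoxb3 were at 0 in every library, and the sums were 16.5 to 26.6 CPM in wild-type samples and 16.8 to 34.98 CPM with the deletion, highest in deletion 2 and 3, the libraries with 4 Ttr counts each. Of 9 pigment epithelium genes, Rpe65 was at 0 throughout, with sums of 7.93 to 9.95 and 9.62 to 13.2 CPM. Of 10 airway and gut genes, Scgb1a1, Krt5, Krt14 and Cdx2 were at 0 throughout, with sums of 3.10 to 3.76 and 2.53 to 3.13 CPM. Meningeal markers summed to 221 to 262 and 223 to 230 CPM. Most of that sum came from Zic1 (2063 to 3154 counts per library) and Igf2 (1077 to 1416), which are also in other lists here. Crabp2 had 119 to 279 counts and Col3a1 63 to 162, but Dcn had 0 to 33, Col1a1 0 to 23 and Lum 0 to 2. Pericyte markers summed to 166 to 194 and 177 to 192 CPM, and oligodendrocyte lineage markers to 109 to 168 and 122 to 155 CPM. Microglial markers summed to 50.0 to 57.4 and 49.2 to 56.0 CPM. None of the genes in these lists passed edgeR's test. Their part in the values of the 10 genes was not tested.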

How the data were processed

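RNA-seq of total RNA from 10 midbrains was deposited by the authors as 1 table of raw counts per Entrez gene ID, made with HISAT2, featureCounts and the build mm39, per the submitters' processing notes. The sources used here do not give versions, annotation or strandedness. Symbols came from RefSeq (GRCm38.p6), for 30648 of 30935 IDs, and transcript lengths from GENCODE M21 (92.3% of genes tested).

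Counts were tested in edgeR 4.0.16 (R 4.3.3): filterByExpr, TMM scaling, and a robust quasi-likelihood fit on genotype alone, two-sided, Benjamini-Hochberg adjusted over all genes at a threshold of 0.05. CPM are TMM-scaled, and 2 was the prior count of log2 CPM. The test was checked on simulated counts. No pair of libraries in a group looked like a duplicate (lowest chi-square per degree of freedom 5.81). The labels call the samples independent biological samples and give no litters or batches, so p-values measure only the spread between these samples.

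Genes were named by rule: the 10 members, and of each wider list the 3 highest per kb and the 2 smallest p; others are marked, and 1 gene that the rule names is not reported here. Of 375 list entries 369 matched. The members and lists were chosen with earlier results of these data known. Alternatives were RLE and upper-quartile scaling, 2 other filters, the replicate number as a block, DESeq2 1.42.0, limma-voom (limma 3.58.1), removal of length and GC trends (splines with 4 degrees of freedom), and leaving out each library.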

Additional observations from a re-analysis of the deposited data

Results flagged for a closer look

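A single library stood apart from the rest of its group of 5 in 4 of the 20 groups checked, by Dixon's criterion at 95%. They were Ccdc153 in wild-type 1 (0.260 CPM) and in deletion 5 (0.0533 CPM), Tmem212 in wild-type 2 (0.123 CPM) and Ttr in wild-type 5 (0.0523 CPM). In each case the other 4 libraries of the group had no count, and the value stood for 5, 1, 2 and 1 counts. With 4 libraries at 0, any count in the remaining library meets the criterion. These flags thus follow from the low counts, and the usual rate of chance flags does not apply to them.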

How the results depend on the processing

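The count of members called was 0 under every alternative run (in DESeq2, which adjusted 8080 genes, Enpp2 alone of the 6 had an adjusted p), as was the count of members whose groups did not overlap under RLE and upper-quartile scaling. The count over all genes was 9 and less stable: 15 with upper-quartile factors (3 higher and 12 lower, against 0 and 9), 69 with no filter, 17 with length and GC trends removed and 261 in DESeq2. It was 0 with the length trend removed, in limma-voom, and with the replicate block over the 4 shared numbers as well as in the same 8 libraries with group only, where 1103, 1656, 941 and 1139 genes had an unadjusted p under 0.05. Leaving out 1 library gave 0 to 357 (357 without deletion 4, 88 without wild-type 2, 3 without deletion 3 or deletion 6, 1 without wild-type 4, 0 without any other). The causes were not tested. Same-numbered libraries did not deviate together (correlations of -0.062 to 0.046), so the numbers were not taken as pairs, and the block gave Foxj1 a log2 ratio of -0.48 (edgeR adjusted p = 0.653). Members near 0 turned sign: Enpp2 was -0.015 with the block, -0.023 in the same 8 libraries with group only and -0.030 to 0.12 with a library left out, Folr1 -0.023 in limma-voom and -0.050 to 0.25 with a library left out, and Rsph1 -0.090 to 0.68. Foxj1, Sspo and Kl kept their direction in all 20 alternatives, with Sspo from -0.52 to -0.04 and Kl from 0.02 to 0.28. The group of 8 libraries with group only was added after the data were seen. For Ccdc153, Tmem212 and Ttr, with 0 to 5 counts per library, depth limits what could be seen.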
